A study of Mus musculus with 9 samples.

Results

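Immune checkpoint ligands are surface or secreted proteins through which tumour, stromal and antigen-presenting cells dampen T cells, NK cells or macrophages. The 9 followed here were the rows of the feature table with the symbols Cd274, Pdcd1lg2, Cd276, Lgals9, Nectin2, Pvr, Cd47, Cd80 and Cd86, of 32286 features in all. Each row was read in 4 kinds of cell of the same mammary tumours, namely tumour cells that carried the H2BMc transcript and macrophages, dendritic cells and endothelial cells picked by marker genes.

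Cd274 encodes PD-L1 and Pdcd1lg2 encodes PD-L2, the ligands of the inhibitory receptor PD-1. Interferon gamma is the best known inducer of PD-L1 in tumour cells, through JAK kinases and the transcription factor Irf1. Cd80 and Cd86 (B7-1 and B7-2) are the costimulatory ligands of professional antigen-presenting cells and bind CD28 or its inhibitory competitor CTLA-4. Cd276 encodes B7-H3, a family member whose receptor is debated. Nectin2 (CD112) and Pvr (CD155) are adhesion molecules that bind TIGIT and the activating receptor CD226. Lgals9 encodes galectin-9, a sugar-binding protein and a reported ligand of TIM-3. Cd47 is the "don't eat me" signal that restrains phagocytes through SIRP alpha.

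The samples were unsorted cell suspensions of 9 primary tumours, loaded after a Percoll gradient had removed dead cells and debris. The tumours were grown from cells injected into the mammary fat pad (MFP) of female BALB/c mice, with 3 tumours for each genotype (WT, Kmt2c KO, Kmt2d KO). All were made from 168FARN, a non-metastatic mouse mammary carcinoma line, and all cells had been transduced with H2B–mCherry. The mice had been bought at 5 to 6 weeks of age. KO cells came from Cas9 and guide pools, were sorted and used as pools rather than clones, so the 3 tumours of a group replicate the mouse and not the knockout. The mice were immunocompetent, and editing was done in the injected cells only, so that host immune and stromal cells were unedited in all groups. Single cells were read with a 5′ droplet kit that counts unique molecular identifiers (UMIs), and the libraries held 21529691 to 125617312 UMIs.

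Of 89147 barcodes, 58645 passed the limits on genes and mitochondrial reads, with 16257 in the tumour gate, 723 in the macrophage gate, 290 in the dendritic gate and 443 in the endothelial gate. A further 40591 cells met no gate. H2BMc was found in 28.5% of the kept cells, and 57.9% of the cells of no gate held Krt8. In the tumour gate 79.7% of cells held Krt8, but Krt18 had 30 UMIs and Epcam 1, while Cd34 was found in 80.2% of cells and the fibroblast gene Pdgfra stood at 77.1 CPM, its UMIs per 1000000 UMIs of the gate. The tumour gate therefore rests on H2BMc, not on an epithelial profile. Lyz2 was found in 90.6% of macrophage-gated cells, H2-Aa in 93.8% of dendritic-gated cells and Eng in 82.2% of endothelial-gated cells. The dendritic gate itself needed a UMI of H2-Ab1, another MHC class II gene, so H2-Aa is no independent check of it. The mural genes Rgs5, Kcnj8, Abcc9 and Notch3 were all detected in the endothelial gate, at 104, 55.8, 44.0 and 18.8 CPM. Among cells that met the endothelial markers 20.4% held H2BMc, against 9.53% for macrophages. With Krt8 counted too, 247 of 692 endothelial-marker cells and 164 of 892 macrophage-marker cells were left out. Of the kept cells 6.51% shared a barcode sequence with another library. The targeted gene Kmt2c stood at 42.4 to 58.1 CPM in Kmt2c KO tumour cells and at 48.4 to 49.4 CPM in WT, and Kmt2d at 24.4 to 32.0 CPM in Kmt2d KO against 15.5 to 21.7 CPM in WT. Small edits need not lower a transcript, so these levels do not check the labels. In Kmt2c KO the gate gene H2BMc itself was higher than in WT (log2 difference 0.74, edgeR adjusted p = 0.0092) and Krt8 lower (-0.91, edgeR adjusted p = 0.0068). Every gated cell had to hold an H2BMc UMI, whatever its depth. The median depth of tumour-gated cells was 8601 to 11710 UMIs in Kmt2c KO and 13624 to 23780 in WT. Gating and depth thus partly set the H2BMc difference, and its p-value is no test of genotype. One library stood apart from its group. Summed over 17 interferon-response genes, Kmt2d KO library 2 reached 3986 CPM in tumour cells, against 1229 and 1281 in the other Kmt2d KO libraries, 705 to 953 in WT and 4441 to 5792 in Kmt2c KO. Where leaving it out changed the call of a ligand, the value without it is given. It was singled out by its values in these data, so p-values without it are descriptions and not tests of genotype.

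The first question was which cells hold each ligand. Levels are CPM summed over the cells of a gate in a library and were compared between gates of the same library, over 9 libraries or, for dendritic cells, the 7 libraries with at least 20 gated cells. Differences are means of log2(CPM + 10), which understate the change of low genes, with a two-sided exact sign-flip permutation test. Its smallest possible p is 0.0039 over 9 libraries and 0.0156 over 7. These p-values are unadjusted, and the share of all genes at or below 0.05 is given for each pair of gates.

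Cd86 and Pdcd1lg2 were higher in macrophages and dendritic cells than in tumour cells. Cd86 lay between 77.1 and 201 CPM in macrophages and between 84.4 and 481 CPM in the 7 dendritic libraries, while tumour cells held 22 Cd86 UMIs in all, at most 0.205 CPM in any library. Macrophages exceeded tumour cells by 3.82 on the log2 scale (9 of 9 libraries, exact p = 0.0039) and dendritic cells by 4.40 (7 of 7, exact p = 0.0156). The tumour level of Cd86 was 0.0645% of the macrophage level, within the 0.0547 to 0.0677% at which the macrophage genes Lyz2, C1qa, C1qb, C1qc and Csf1r appeared in tumour-gated cells. C1qa, C1qb, C1qc and Csf1r are markers of the macrophage gate, which tumour-gated cells could not meet, so gating partly sets their shares. Lyz2, at 0.0547%, is no gate marker. Pdcd1lg2 stood at 0.171%. Whether the Cd86 and Pdcd1lg2 UMIs of tumour cells are background or expression was not tested. Pdcd1lg2 ranged from 0 to 93.9 CPM in macrophages and from 28.2 to 132 CPM in dendritic cells, against 24 UMIs in tumour cells. It was higher than in tumour cells by 2.05 in macrophages (8 of 9, exact p = 0.0078) and by 3.37 in dendritic cells (7 of 7, exact p = 0.0156). Pdcd1lg2 was also found in T and NK cells, where at 1000 UMIs a cell 6% held a UMI of it. The share was 5.67% of macrophages, 9.19% of dendritic cells and 0 of 433 endothelial cells. For endothelial cells the exact binomial upper limit was 0.848%, which bounds detection at this depth and not the share that expresses the gene. By library these shares ran from 0 to 8.4% in 3 T and NK libraries, 0 to 8.07% in macrophages and 0 to 15.8% in dendritic cells, and 172 of the 341 T and NK cells came from Kmt2c KO library 2. For Cd86 the pooled shares were 2% of T and NK cells, 15.5% of macrophages and 18.0% of dendritic cells. Endothelial cells held no UMI of Cd86 or Pdcd1lg2.

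Cd80 was highest in dendritic cells and, unlike Cd86, had a tumour level well above the percentages of those macrophage genes. It lay at 28.2 to 154 CPM in the 7 dendritic libraries but 0 to 48.4 CPM in macrophages, so that dendritic cells exceeded macrophages by 1.64 (7 of 7 libraries, exact p = 0.0156). Cd86 was also higher in dendritic cells than in macrophages, by 0.65 (7 of 7, exact p = 0.0156). In tumour cells Cd80 lay between 3.29 and 4.67 CPM, a narrow range with 845 UMIs behind it and 17.8% of the macrophage level. At 1000 UMIs a cell, 5.6% of T and NK cells held a Cd80 UMI (3.33 to 9.09% in 3 libraries), against 2.45% of macrophages (0 to 4.88%) and 7.72% of dendritic cells (4.88 to 14.8%). Endothelial cells held 1 Cd80 UMI.

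Cd274 was present in all 4 gates. It ranged from 3.44 to 49.2 CPM in tumour cells, from 18.2 to 446 CPM in macrophages, from 83.7 to 399 CPM in dendritic cells and from 6.96 to 161 CPM in endothelial cells. Macrophages exceeded tumour cells by 2.75 (9 of 9 libraries, exact p = 0.0039), dendritic cells by 2.88 (7 of 7, exact p = 0.0156) and endothelial cells by 1.13 (9 of 9, exact p = 0.0039). Dendritic cells and macrophages did not differ beyond their spread (0.13, 2 of 7 libraries higher, exact p = 0.91). At 1000 UMIs a cell, 20.4% of macrophages held a Cd274 UMI (exact 95% binomial interval 17.3 to 23.7%), against 15.1% of dendritic cells, 5.6% of T and NK cells, 4.62% of endothelial cells and 2.55% of tumour cells. These shares pool the cells of all genotypes, which entered in unequal numbers. By library the share ran from 0 to 33.9% in macrophages, 7.41 to 37.5% in dendritic cells, 0 to 15% in endothelial cells, 3.33 to 15.2% in T and NK cells and 0.339 to 5.42% in tumour cells, over the libraries with at least 20 cells at this depth, 9 for macrophages, endothelial and tumour cells, 6 for dendritic cells and 3 for T and NK cells. These intervals cover counting error only. Of all Cd274 UMIs in kept cells, tumour cells held 32.8%, macrophages 4.09%, dendritic cells 1.23% and endothelial cells 1.02%. Most of the rest lay in cells of no gate, with 35.2% in those with a Krt8 UMI and 25.3% in those without.

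Lgals9, Nectin2 and Cd276 had their highest mean levels in endothelial cells. Lgals9 stood at 487 to 963 CPM in endothelial cells against 52.5 to 100.9 CPM in tumour cells, and macrophages lay between, at 115 to 238 CPM. Endothelial cells exceeded tumour cells by 3.03 and macrophages exceeded them by 1.19 (9 of 9 libraries and exact p = 0.0039 in both). Dendritic cells had less Lgals9 than macrophages, by 1.57 on the log2 scale (0 of 7 libraries higher, exact p = 0.0156). Of endothelial cells thinned to 1000 UMIs, 41.1% held a Lgals9 UMI, against 13.9% of macrophages and 7.22% of tumour cells. Nectin2 stood at 153 to 324 CPM in endothelial cells and 15.8 to 24.8 CPM in tumour cells, a difference of 2.92 (9 of 9, exact p = 0.0039). Cd276 stood at 26.1 to 87.0 CPM in endothelial cells and 1.17 to 2.45 CPM in tumour cells, a difference of 2.21 (9 of 9, exact p = 0.0039). Its mean in macrophages was 10.5 CPM, but in WT library 2 macrophages stood above endothelial cells. Endothelial cells and macrophages were not compared by a test. The mural genes named above were detected in the same gate, and their part in these levels was not tested.

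Pvr and Cd47 had no host source that stood far above the tumour cells. Pvr was lower in macrophages than in tumour cells, by 0.90 (0 of 9 libraries higher, exact p = 0.0039), and did not differ beyond the spread in endothelial cells (3 of 9 higher, exact p = 0.58). Cd47 lay between 242 and 591 CPM in every library compared in the 4 gates. It was higher than in tumour cells in dendritic cells by 0.60 (7 of 7, exact p = 0.0156) and in endothelial cells by 0.29 (9 of 9, exact p = 0.0039), and in macrophages the difference was 0.08 (6 of 9, exact p = 0.31).

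Counted over the 9 ligands, 6 were higher in macrophages than in tumour cells and 1 was lower, where 15.8% of all genes were higher and 44.3% lower. Against tumour cells, 5 ligands were higher in dendritic cells and none lower, where 12.1% and 44.1% of all genes were. In endothelial cells 5 were higher and 3 lower, 2 of the 3 being Cd86 and Pdcd1lg2 at about 0 in both gates, where 18% and 44.5% of all genes were. Between dendritic cells and macrophages, 3 were higher and 2 lower (Lgals9 and Cd276), where 9.02% and 11.6% of all genes were. Cd276 rested on 20 UMIs in macrophages and 1 in dendritic cells.

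**Figure D1:**
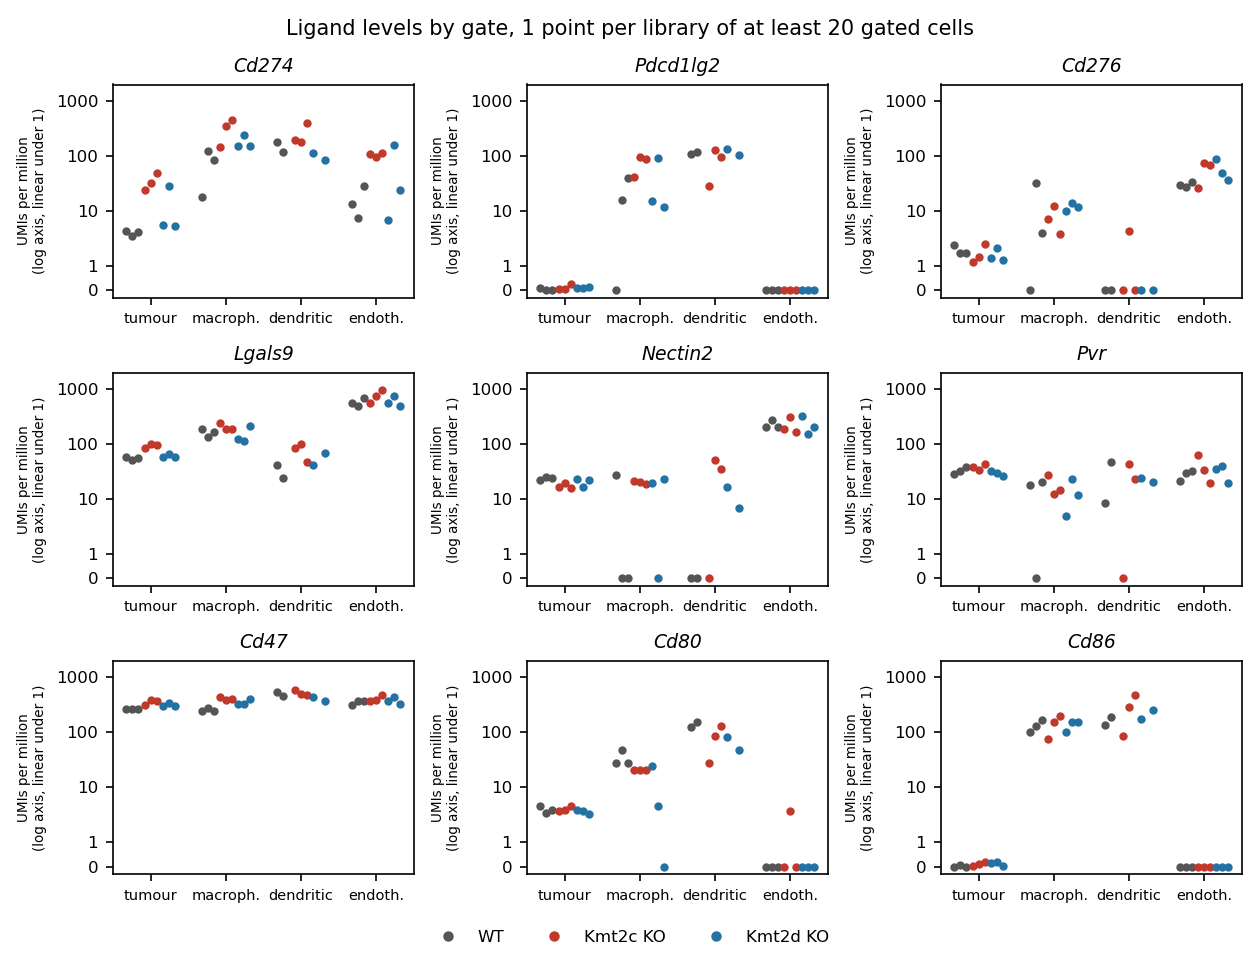
Level of each ligand in CPM (log axis, linear below 1) in tumour, macrophage, dendritic and endothelial gates, 1 point per library with at least 20 gated cells, coloured by tumour genotype. Cd86 and Pdcd1lg2 sit near 0 in tumour and endothelial cells, and Lgals9, Nectin2 and Cd276 have their highest mean in endothelial cells.

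The next question was how ligands of the tumour cells moved with genotype. UMIs were summed per library over the tumour gate and compared by the edgeR quasi-likelihood test in 1 fit of 9 libraries and 13966 genes, with Benjamini-Hochberg adjustment over all of them. A gene is called at an adjusted p under 0.05. Of the 9 ligands 7 had enough counts to be tested, Pdcd1lg2 and Cd86 being too low.

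In Kmt2c KO tumour cells Cd274, Lgals9 and Cd47 rose over WT. Cd274 stood at 4.35, 3.44 and 4.22 CPM in the WT libraries and at 23.6, 32.8 and 49.2 CPM in Kmt2c KO. The groups did not overlap, and the Kmt2c KO libraries spread far wider than the WT libraries. The mean was 35.2 ± 13.0 CPM against 4.0 ± 0.49 CPM (SD, n = 3 each), a log2 difference of 3.16 ± 0.65 (SE, edgeR adjusted p = 0.0096). Without WT library 2 the adjusted p was 0.051, with a difference of 3.05.

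Lgals9 stood at 57.9, 52.5 and 56.6 CPM in WT and 86.8, 100.9 and 96.3 CPM in Kmt2c KO. Both groups were tight and well apart, with a log2 difference of 0.78 ± 0.09 (SE, edgeR adjusted p = 0.00072). Cd47 stood at 270, 267 and 262 CPM in WT and 318, 383 and 378 CPM in Kmt2c KO, a log2 difference of 0.45 ± 0.09 (SE, edgeR adjusted p = 0.010). The ranges of Cd47 did not overlap, but with tumour cells thinned to 1 depth its adjusted p was 0.082.

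Nectin2 was lower by value, at 22.0, 24.8 and 24.2 CPM in WT and 16.6, 19.5 and 15.8 CPM in Kmt2c KO, with a log2 difference of -0.43 (edgeR adjusted p = 0.070, and 0.011 without Kmt2d KO library 2, which enters the same fit). Pvr stood at 28.2, 31.9 and 38.0 CPM against 38.3, 33.9 and 43.5 CPM, groups that overlapped (0.25, edgeR adjusted p = 0.21). Cd276 and Cd80 overlapped as well, at 1.17 to 2.45 CPM and 3.29 to 4.67 CPM over all 9 libraries. In all, 3 of the 7 tested ligands were called higher and 0 lower by edgeR, where 10.2% of all genes tested were called higher and 8.54% lower. At an unadjusted p under 0.05 there were 4, and DESeq2 called 4, Nectin2 being the fourth. The median log2 difference was 0.25 over the tested ligands and 0.013 over all genes tested.

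Genes listed as markers of other cell types moved with these groups inside the tumour gate. All 4 fibroblast genes (Col3a1, Dpt, Pdgfra and Pi16) were detected, and their sum was 235 to 291 CPM in WT, 97.7 to 121 CPM in Kmt2c KO, 232 and 223 CPM in Kmt2d KO libraries 1 and 3, and 111 CPM in Kmt2d KO library 2. The libraries with the highest Cd274 thus had the lowest fibroblast sum. In WT host gates that sum was 12.1 to 27.2 CPM in macrophages, 12.0 to 24.2 CPM in endothelial cells and 59.0 to 178 CPM in dendritic cells. Whether tumour cells or other cells hold these fibroblast UMIs was not tested. The sum over 10 macrophage markers was 5.85 to 7.53 CPM in WT and 9.89 to 12.4 CPM in Kmt2c KO, with 9 and 10 of the 10 detected, and 11.4 CPM in Kmt2d KO library 2 against 5.74 and 5.93 CPM in the other Kmt2d KO libraries. The part of either in the ligand levels was not tested.

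**Figure D2:**
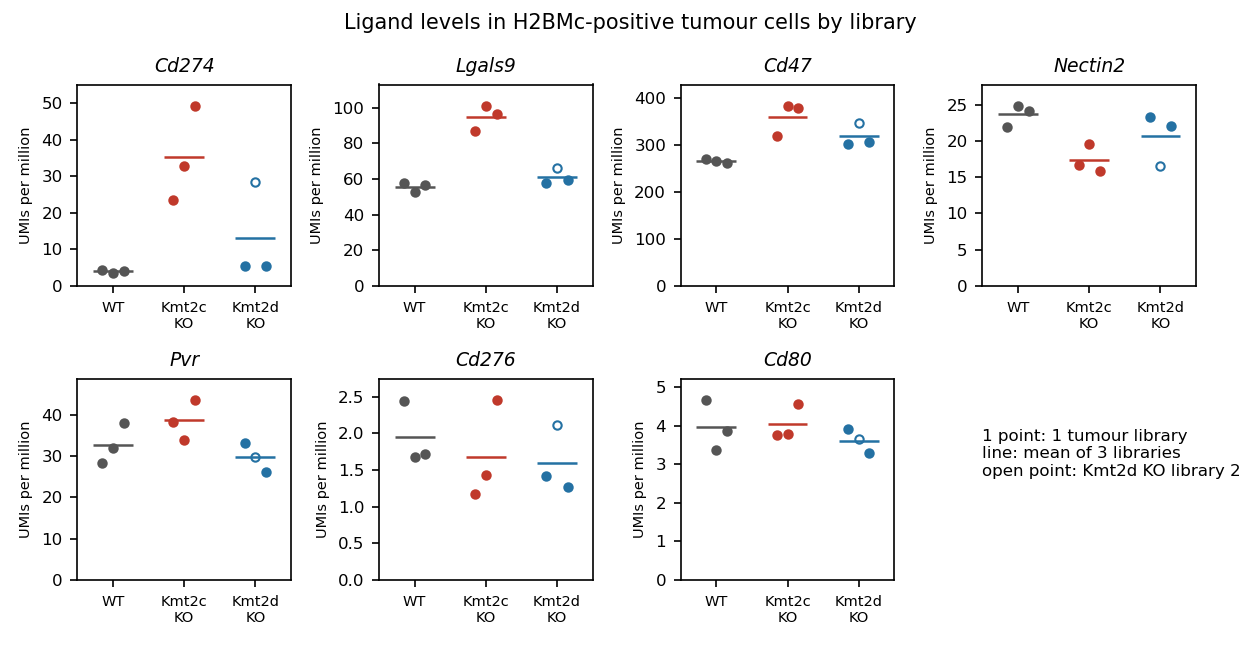
Ligand levels in H2BMc-positive tumour cells, in CPM, by genotype. Each point is a library, each line the mean of 3 libraries and the open point Kmt2d KO library 2, which sits with Kmt2c KO for Cd274 at 28.5 CPM and apart from the other Kmt2d KO libraries at 5.53 and 5.38 CPM.

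In Kmt2d KO tumour cells no ligand was called against WT. Cd274 stood at 5.53, 28.5 and 5.38 CPM, so that library 2 alone reached the Kmt2c KO range, and its log2 difference from WT was 1.70 ± 0.66 (SE, edgeR adjusted p = 0.23). Without library 2 it was 0.44 (adjusted p = 0.45). Lgals9 stood at 57.9, 66.2 and 59.7 CPM (0.12, edgeR adjusted p = 0.57) and Cd47 at 301, 348 and 306 CPM (0.24, edgeR adjusted p = 0.24). All 3 Kmt2d KO libraries lay above the WT range for Cd47. The edgeR count was 0 of 7, with 2 at an unadjusted p under 0.05 (0 without library 2) and 0 by DESeq2, where 2.05% of all genes were called.

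Between Kmt2d KO and Kmt2c KO tumour cells 0 ligands were called by edgeR, where 0% of all genes were called, although 4 ligands and 2469 of all genes had an unadjusted p under 0.05. DESeq2 called 1 ligand, Lgals9. The log2 differences were -0.67 for Lgals9 (edgeR adjusted p = 0.056), -1.46 for Cd274 (adjusted p = 0.20), -0.42 for Pvr (adjusted p = 0.15) and -0.21 for Cd47 (adjusted p = 0.27). Without Kmt2d KO library 2, 4 ligands were called by edgeR. Cd274 was then lower in Kmt2d KO by 2.7 on the log2 scale (adjusted p = 8.65e-06), Lgals9 by 0.71 (adjusted p = 0.00022) and Pvr by 0.41 (adjusted p = 0.049), and Nectin2 was higher by 0.36 (adjusted p = 0.049). Over all genes the count for this comparison ran from 0 to 2776 with 1 library left out. Library 2 holds the high Cd274 of its group and was singled out by its values, so these p-values are no separate test.

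The share of tumour cells with a ligand UMI was compared after cells were thinned to 2000 UMIs, since the median depth of tumour-gated cells ran from 8601 to 23780 UMIs. For Cd274 the share was 1.18, 0.79 and 1.52% in WT, 5.58, 7.03 and 10.3% in Kmt2c KO, and 1.60, 6.01 and 1.47% in Kmt2d KO. As with the levels, only library 2 of Kmt2d KO came within the range of Kmt2c KO. An exact Kruskal-Wallis permutation test over the 9 libraries gave p = 0.0286. For Lgals9 the mean share was 10.2% for WT, 15.9% for Kmt2c KO and 11% for Kmt2d KO (exact p = 0.025). For Cd47 it was 39.3, 47.8 and 46.5% in the same order (exact p = 0.05). The share fell in the order WT, Kmt2d KO, Kmt2c KO for Nectin2, with 5.12, 4.03 and 3.28% (exact p = 0.0286). For Pvr it was 5.44, 7.73 and 6.08% in the order of Lgals9 (exact p = 0.025). These 5 of 9 ligands passed at an unadjusted exact p of at most 0.05, where 15.4% of all genes did, and none passed after adjustment over all genes (lowest exact permutation adjusted p = 0.27). With cells thinned to 1000 UMIs Nectin2 (exact p = 0.72) and Pvr (exact p = 0.14) no longer passed. Their mean shares in WT, Kmt2c KO and Kmt2d KO were then 2.22, 1.72 and 2.00% for Nectin2 and 2.81, 4.15 and 2.96% for Pvr. Cd274, Lgals9 and Cd47 still passed, and so did Cd80 (exact p = 0.0036). The Cd80 result rests on 3, 5 and 3 WT cells with a UMI, at 0.564 to 0.906% in that random draw, where another draw at the same depth had 0.493% in its highest library. At 2000 UMIs Cd80 did not pass (exact p = 0.13) and the knockouts stood in the other order. A test of 3 against 3 libraries cannot go below 0.1. Unthinned, the shares of Lgals9, Pvr and Cd47 were lower in Kmt2c KO than in WT, whose cells were deeper.

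The promoters of the 3 called ligands are shown because 2 of them hold a match to the core of the interferon-stimulated response element and 1 does not. The sequences end just before the start that the RefSeq promoter set gives on build GRCm38.p6 (mm10), which for Cd274 and Cd47 lies inside the gene's record, and are on the gene's strand, and capitals mark the match to GAAANNGAA on the other strand, written here as TTCNNTTTC.
Cd274, chr19:29367293-29367437 on the plus strand: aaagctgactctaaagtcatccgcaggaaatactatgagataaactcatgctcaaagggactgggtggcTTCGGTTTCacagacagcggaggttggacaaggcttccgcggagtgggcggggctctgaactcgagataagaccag
Lgals9, chr11:78984925-78985069 on the minus strand: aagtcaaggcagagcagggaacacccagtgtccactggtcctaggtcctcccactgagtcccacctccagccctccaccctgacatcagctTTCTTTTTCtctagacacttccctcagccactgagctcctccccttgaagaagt
Cd47, chr16:49855509-49855653 on the plus strand: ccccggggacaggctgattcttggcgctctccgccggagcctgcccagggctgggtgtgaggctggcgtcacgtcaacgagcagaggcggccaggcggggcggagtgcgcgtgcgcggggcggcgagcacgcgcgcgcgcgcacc

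In the whole windows, 250 bases before to 50 after the start, GAAANNGAA was found on either strand in 8.56% of 32851 windows. It occurred at -76 for Cd274 and at -54 and 16 for Lgals9, and in none of the windows of Cd47, Cd80, Cd276, Nectin2 and Pdcd1lg2. TTCNNNGAA, the gamma-activated site, which reads the same on both strands and shares the letters GAA with the first motif, was in 8.30% of windows and in none of these 7 ligands. Pvr and Cd86 had no entry. A match is a description of letters and not a site in use.

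Cd274 and Pdcd1lg2 lie next to each other on chromosome 19 (29362107 to 29388095 and 29410919 to 29472927). Among their neighbours in tumour cells Plgrkt, whose record overlaps the first part of that of Cd274, stood at 81.7 to 85.9 CPM in WT and 70.7 to 76.9 CPM in Kmt2c KO (log2 difference -0.17, edgeR adjusted p = 0.17), and Ermp1 fell from 72.3 to 74.0 CPM to 48.6 to 57.0 CPM (-0.48, edgeR adjusted p = 0.013). A930007I19Rik stood at 2.44 to 4.46 CPM in WT, 5.09 to 6.29 CPM in Kmt2c KO (0.58, edgeR adjusted p = 0.072) and 5.11 to 6.08 CPM in Kmt2d KO (0.55, adjusted p = 0.21), so that neither knockout group overlapped WT. Ric1 stood at 16.9 to 19.3 CPM in WT and 20.3 to 24.8 CPM in Kmt2c KO (0.27, edgeR adjusted p = 0.13), and Rln1 had 1 UMI in all. Gm36043 is a long non-coding RNA whose record lies inside that of Cd274. It had 0 UMIs in WT tumour cells and 122 in those of Kmt2c KO, at least 14.1-fold higher than a floor of 3 counts over the WT group (edgeR adjusted p = 0.018). In Kmt2d KO it had 55 UMIs, at 0.208 to 1.16 CPM with library 2 the highest (edgeR adjusted p = 0.17). Reads of overlapping records can be split between them, so its level is uncertain.

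The third question was whether ligands of host cells moved with the genotype of the tumour cells. Macrophages and endothelial cells of Kmt2c KO tumours had more Cd274 than those of WT tumours. In macrophages Cd274 stood at 18.2, 121 and 84.8 CPM in WT, 147, 347 and 446 CPM in Kmt2c KO, with 150, 244 and 154 CPM in Kmt2d KO. All Kmt2c KO and Kmt2d KO libraries lay above the highest WT library. The log2 difference of Kmt2c KO from WT was 2.11 ± 0.42 (SE, edgeR adjusted p = 0.0033), and that of Kmt2d KO was 1.28 (adjusted p = 0.29, and 0.94 with an adjusted p of 0.70 without Kmt2d KO library 2). Kmt2d KO and Kmt2c KO differed by -0.82 (adjusted p = 0.43). Numbers of gated macrophages were small, 23 to 66 cells in WT, 65 to 189 in Kmt2c KO and 24 to 73 in Kmt2d KO.

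Cd47 in macrophages stood at 245, 274 and 242 CPM in WT and 442, 396 and 401 CPM in Kmt2c KO, a log2 difference of 0.73 ± 0.21 (SE, edgeR adjusted p = 0.034). The groups did not overlap, yet the call was lost with any of these 6 libraries left out (adjusted p of 0.068 to 0.14) and with DESeq2 (0.11). In Kmt2d KO it stood at 324, 322 and 403 CPM (0.46, adjusted p = 0.50). Pdcd1lg2 stood at 0, 16.1 and 40.4 CPM in WT, 42.1, 93.9 and 89.5 CPM in Kmt2c KO, with 15, 92.0 and 11.9 CPM in Kmt2d KO. Its log2 difference in Kmt2c KO was 1.78 (edgeR adjusted p = 0.086). It ran from 1.39 without WT library 1 to 3.22 without WT library 3, and was called without Kmt2d KO library 1 (adjusted p = 0.046) or library 2 (0.023). Without Kmt2d KO library 2 Pdcd1lg2 was also lower in Kmt2d KO than in Kmt2c KO, by 2.56 on the log2 scale (edgeR adjusted p = 0.049). Lgals9 differed by 0.33 (adjusted p = 0.51). By edgeR 2 of 5 tested ligands were called higher and 0 lower, where 5.95% and 2.47% of genes tested in macrophages were, and DESeq2 called 1. In Kmt2d KO macrophages 0 were called against WT (2 at an unadjusted p under 0.05 and 0 without library 2, 0 by DESeq2), where 1.13% of genes were, and 0 against Kmt2c KO (1 unadjusted, 0 by DESeq2), where 0.235% were.

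In endothelial cells Cd274 stood at 13.5, 7.48 and 28 CPM in WT, 109, 97.2 and 114 CPM in Kmt2c KO, with 6.96, 161 and 24.1 CPM in Kmt2d KO. The Kmt2c KO libraries were close together, and Kmt2d KO library 2 was again the high one of its group. The log2 difference of Kmt2c KO from WT was 2.62 ± 0.72 (SE, edgeR adjusted p = 0.044), which was lost with any of the 6 libraries left out (adjusted p of 0.067 to 0.16). For Kmt2d KO it was 1.69 (adjusted p = 0.49), and -0.040 without library 2. Between the knockouts it was -0.94 (adjusted p = 0.69), and -2.67 without library 2 (adjusted p = 0.00092). Cd276 stood at 27.4 to 34.0 CPM in WT and 26.1 to 74.7 CPM in Kmt2c KO (0.95, adjusted p = 0.20), and Lgals9 differed by 0.40 (adjusted p = 0.35). By edgeR 1 of 6 tested ligands was called higher and 0 lower, where 3.97% and 2.07% of genes tested in endothelial cells were. In Kmt2d KO 0 were called against WT (2 unadjusted and 1 without library 2, 0 by DESeq2) and 0 against Kmt2c KO (0 unadjusted, 0 by DESeq2), where 0% of genes were called in both. The sum over the 4 mural genes in this gate was 107 to 237 CPM in WT, 67.7 to 523 CPM in Kmt2c KO, and 729 CPM in Kmt2d KO library 2 against 76.6 and 86.8 CPM in the other Kmt2d KO libraries, and its part was not tested.

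In dendritic cells no ligand was called. Cd274 stood at 178 and 119 CPM in the WT libraries with enough cells, 197, 182 and 399 CPM in Kmt2c KO and 115 and 83.7 CPM in Kmt2d KO. Every Kmt2c KO library lay above the other 4 libraries, but the log2 difference from WT was 0.73 (edgeR adjusted p = 0.57) and that of Kmt2d KO from Kmt2c KO -1.31 (adjusted p = 0.15). Cd86 differed by 0.91 in Kmt2c KO (adjusted p = 0.48), and Cd80 by -1.07 in Kmt2d KO (adjusted p above 0.9). Of 5 tested ligands 0 were called by edgeR and 0 by DESeq2 in each comparison, with 0, 0 and 1 at an unadjusted p under 0.05. Of all genes tested in dendritic cells, edgeR called 1.94% for Kmt2c KO and 0% for Kmt2d KO against WT, and 1.02% between the knockouts. The libraries compared held 20 to 59 dendritic-gated cells each.

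**Figure D3:**
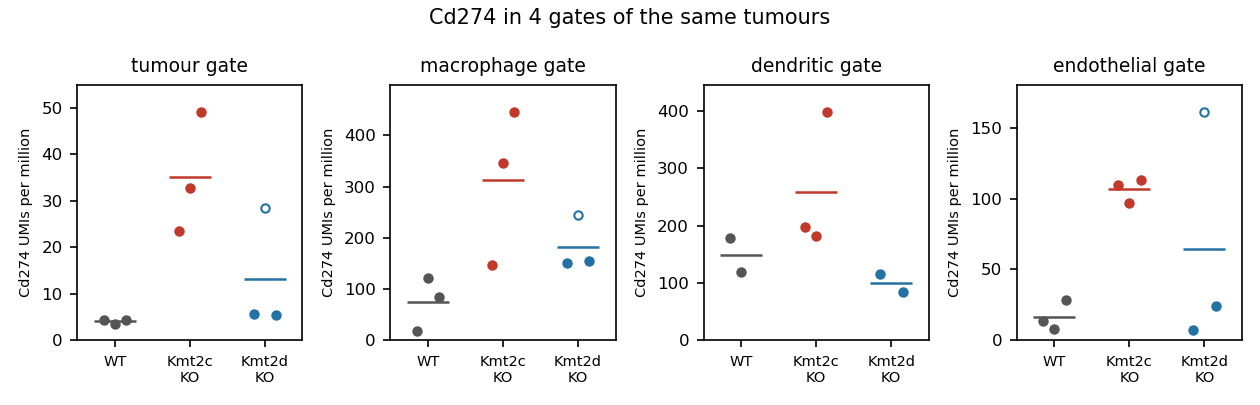
Cd274 in CPM in 4 gates of the same tumours, by genotype, with 1 point per library of at least 20 gated cells, a line at each group mean and Kmt2d KO library 2 open. Kmt2c KO libraries lie above all WT libraries in each gate, and each panel has its own axis from 0.

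The difference of the Kmt2c KO effect between gates was tested directly. For Cd274 the effect in macrophages was smaller than in tumour cells by 1.07 ± 0.36 on the log2 scale (SE, edgeR interaction, adjusted p = 0.063). In endothelial cells it was smaller by 0.48 (adjusted p = 0.75), and for Lgals9 by 0.45 (adjusted p = 0.24). By edgeR 0 of 9 ligands were called for macrophages and 0 of 7 for endothelial cells, with 2 and 1 at an unadjusted p under 0.05 for Kmt2c KO and 0 for Kmt2d KO, where 4.73% of genes were called for macrophages with Kmt2c KO and 1.89% with Kmt2d KO, and 3.36% and 0.866% for endothelial cells. Without WT library 1, which had 23 macrophages, the macrophage difference of Cd274 was -1.49 (edgeR adjusted p = 0.0057) and that of Nectin2 was called in the other direction (adjusted p = 0.0099), with 0 Nectin2 UMIs in the macrophages of the WT libraries left, 3 in WT library 1 and 3, 10 and 10 in Kmt2c KO. Without WT library 2 that of Cd274 was -0.59 (adjusted p = 0.67). The endothelial difference of Cd274 turned to 0.20 without WT library 3 (adjusted p = 0.99). Without Kmt2d KO library 2 the endothelial difference of Lgals9 was -0.46 and was called (edgeR adjusted p = 0.044).

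Interferon-response genes moved in the same libraries. Of the 17 genes of the interferon list, 17 were called higher in Kmt2c KO tumour cells (median log2 difference 2.75), 13 of 16 tested in macrophages (1.80), 10 of 17 in endothelial cells (1.58) and 3 of 12 in dendritic cells (2.13). Of all genes tested, 10.2% were called higher in tumour cells, 5.95% in macrophages and 3.97% in endothelial cells, and 1.94% in either direction in dendritic cells. In Kmt2d KO 1 of 17 was called in tumour cells, Bst2 (1.36), with 15 at an unadjusted p under 0.05 and 4 called by DESeq2. Without Kmt2d KO library 2, 6 were called higher, Bst2 (0.85), Irf7 (0.84), Psmb8 (0.36), Psmb9 (0.83), Rtp4 (1.02) and Tap1 (0.64), and 10 had an unadjusted p under 0.05. In macrophages, endothelial cells and dendritic cells edgeR and DESeq2 called 0, with 6, 3 and 1 at an unadjusted p under 0.05. Between the knockouts edgeR called 0 of the 17 in tumour cells (15 at an unadjusted p under 0.05, 4 by DESeq2) but 17 without library 2. Library 2 had been singled out by its sum over these same 17 genes in tumour cells. Counts of these genes without it, in any gate, are therefore descriptions and not tests. Over all genes that count ran from 0 to 2776 with 1 library left out. Between the knockouts 1 of 16 was called in macrophages and 9 without library 2. In endothelial cells the same counts were 0 of 17 and 12. For Kmt2c KO against WT 14 in place of 10 were called in endothelial cells without library 2. In Kmt2d KO against WT, without library 2, edgeR called 0 in macrophages and endothelial cells, with 0 and 2 at an unadjusted p under 0.05. The list was chosen with earlier results of these samples known, so its count is not independent evidence. The number of T and NK cells, which can secrete interferon gamma, was 10, 12 and 14 in WT, 8, 172 and 50 in Kmt2c KO, with 45, 9 and 21 in Kmt2d KO. These came from 1185, 2380 and 939 kept cells in WT and 11813, 8743 and 6024 in Kmt2c KO. In Kmt2d KO there were 5997, 7039 and 14525 kept cells. The counts therefore do not rank the libraries by their share of T and NK cells. Kmt2c KO library 1, with 8 such cells, had the lowest Cd274 of its group in tumour cells and macrophages. In endothelial and dendritic cells library 2 of that group, with 172, had the lowest. Kmt2d KO library 2, with 9, had the highest Cd274 of its group in tumour cells, macrophages and endothelial cells. The part of these cells in the ligand levels was not tested.

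Ligands were then compared among tumour cells of the same library, above and at or below the library's median of an expression score. Scores were UMIs of a list among 2000 thinned UMIs, and no list holds a ligand. Cells above the median interferon score had more Cd274 in 9 of 9 libraries. In Kmt2c KO the level was 55.0, 63.2 and 94.9 CPM above and 12.7, 17.9 and 25.8 CPM at or below the median. In Kmt2d KO it was 14.8, 59.9 and 17.1 CPM above and 5.25, 9.89 and 3.08 CPM at or below. In WT it was 10.1, 5.32 and 7.81 CPM above and 3.65, 3.32 and 7.50 CPM at or below, where the median score was 1 UMI. In WT these levels rest on 2 or 3 Cd274 UMIs above and 2 to 4 at or below, too few to set a direction by. The mean log2 difference of Cd274 was 0.98 (exact sign-flip p = 0.0039).

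Lgals9 was also higher above the median, by 0.85 (9 of 9 libraries, exact p = 0.0039), as was Cd47, by 0.26 (8 of 9, exact p = 0.0078). Pvr was lower, by 0.20 (1 of 9 higher, exact p = 0.0117), but between the upper and lower quartile of the score its difference of -0.24 did not pass (3 of 9 higher, exact p = 0.066). Of the 9 ligands 3 were thus higher and 1 lower at an unadjusted exact p of at most 0.05, where 8.4% and 9.74% of all genes were, and after adjustment over all genes the lowest exact p was 0.071. Of the cells, 33.3% lay within 1 UMI of the cut.

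With the hypoxia score Cd274 was the 1 ligand of 9 that passed, lower by 0.35 above the median (2 of 9 higher, exact p = 0.0391, and 0.18 after adjustment over all genes), where 5.46% of all genes were higher and 17.9% lower at the same threshold. That count is no larger a share than among all genes, and the WT levels rest on 1 to 4 UMIs a side. Between the upper and lower quartile of the hypoxia score the difference of Cd274 was -0.43 (1 of 9 higher, exact p = 0.070), and Pvr was higher by 0.38 (8 of 9, exact p = 0.0195). With the cell cycle score 4 ligands were lower and 0 higher, where 25% of all genes were lower and 17.2% higher. Cd47 was lower by 0.49, Lgals9 by 0.46 and Cd274 by 0.44 (0 of 9 libraries higher and exact p = 0.0039 for each, 0.019 after adjustment over all genes), and Nectin2 by 0.28 (2 of 9 higher, exact p = 0.0312). For Cd274 the WT libraries held 0 or 1 UMI above the cut and 4 to 7 at or below it, too few to set a direction by. The cut was 0 UMIs in every library, and 76.3% of cells lay within 1 UMI of it, so the lower side holds every cell without a UMI of the list.

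**Figure D4:**
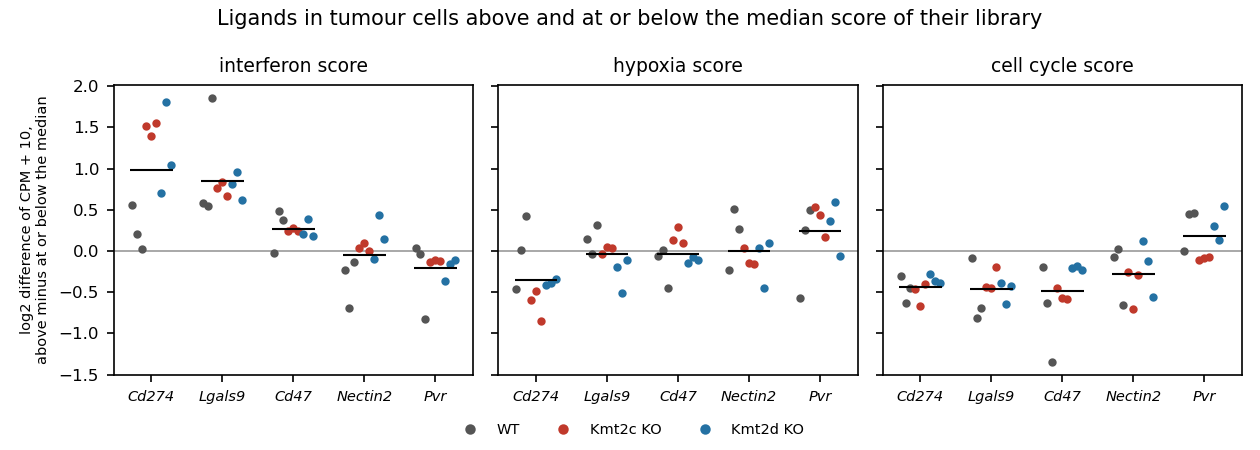
Difference of log2(CPM + 10) between tumour cells above and at or below the median of 3 expression scores in their library, for 5 ligands, with 1 point per library and a line at the mean of 9. Cd274 and Lgals9 are above 0 in all libraries for the interferon score and below 0 in all for the cell cycle score. The WT points of Cd274 rest on 2 to 4 UMIs a side for the interferon score and 0 to 7 for the cell cycle score. These are too few to set a direction by.

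Cd274 was then read within ranges of the interferon score. Among cells with a score of 0 to 4 it stood at 2.56, 3.59 and 5.12 CPM in WT, 6.90, 5.70 and 13.6 CPM in Kmt2c KO, with 5.91, 5.09 and 4.41 CPM in Kmt2d KO, the last 3 lying close together with library 2 among them. These levels rest on 2 to 6 UMIs a library in WT, 8 to 13 in Kmt2c KO and 7 to 18 in Kmt2d KO, and all Kmt2c KO values lay above those of WT. The range does not match scores between genotypes. The median score of all thinned tumour cells was 1 in each WT library and 8 to 10 in Kmt2c KO. Cells of the 2 groups within this range need not have like scores. Among cells with a score of 5 to 9 it stood at 19.9, 32.0 and 31.0 CPM in Kmt2c KO and 5.43, 31.5 and 11.6 CPM in Kmt2d KO (2, 37 and 6 UMIs). Among cells with a score of 10 to 19 it stood at 48.3, 55.6 and 67.9 CPM in Kmt2c KO and 44.3, 49.8 and 33.7 CPM in Kmt2d KO (7, 42 and 6 UMIs). In both ranges only library 2 of Kmt2d KO came within the Kmt2c KO values. Libraries 1 and 3 lay below every Kmt2c KO library there. At a score of 20 or more Cd274 stood at 87.4, 72.8 and 134 CPM in Kmt2c KO. In Kmt2d KO it stood at 62.5, 109 and 71.4 CPM (3, 47 and 8 UMIs). Libraries 1 and 3 were again the lowest by value, on too few UMIs to set an order by. Each WT library had only 10 to 12 cells at a score of 10 to 19. The ranges were chosen after the values were seen and no test was made.

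**Figure D5:**
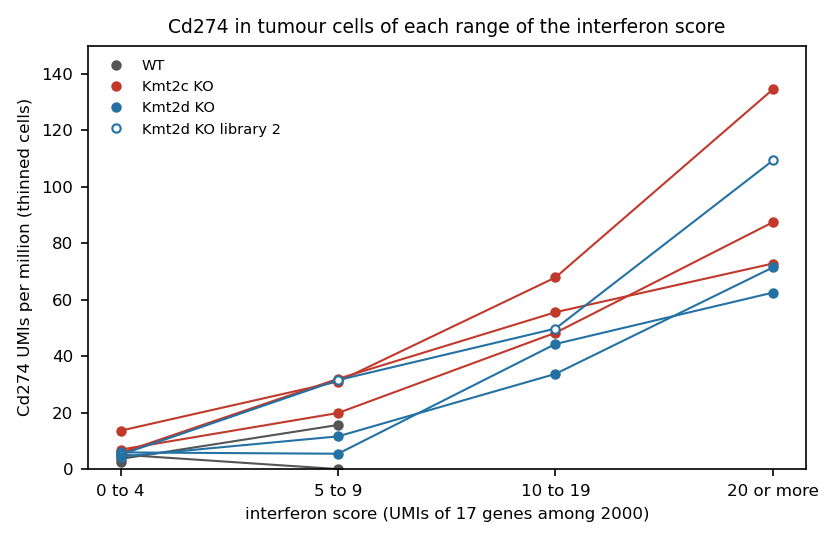
Cd274 in CPM of thinned tumour cells (linear axis) in 4 ranges of the interferon score, 1 line per library by genotype, for ranges of at least 20 cells, with Kmt2d KO library 2 open. All 6 knockout libraries rise from 4.41 to 13.6 CPM in the lowest range to 62.5 to 134 CPM in the highest, and WT libraries have too few cells above a score of 9.

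The genes whose tumour level followed Cd274 most closely over the 9 libraries, by Pearson r of log2(CPM + 1) among 8656 genes, were Idnk, Ddx58, Irgm1, Il15, Stat2, Parp14, Ddx60, Ifi47, Parp11 and H2-T22, with r from 0.994 to 0.998. Irgm1 is in the interferon list. Ddx58 encodes the RNA sensor RIG-I, Stat2 a transcription factor of the type I interferon response, Il15 a cytokine of NK and CD8 T cells and H2-T22 a non-classical MHC class I protein. Closest to Lgals9 were Ddit3, Hk1 and Eno1b (r of 0.964 to 0.979), and to Cd47 Apod, Cpne8 and Ccnl2 (0.969 to 0.974). The 9 libraries fall into genotype groups that share these differences, so the values describe order and carry no test.

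Partner genes of the ligands were counted from 3 lists. Of 9 receptors 4 were tested in tumour cells and 2 were higher in Kmt2c KO. Sirpa, the receptor of Cd47, stood at 7.32 to 7.76 CPM in WT and 11.1 to 14.3 CPM in Kmt2c KO (log2 difference 0.72). Ctla4, a T cell gene, stood at 0.37 to 0.91 CPM (19 UMIs) and 1.15 to 1.59 CPM (132 UMIs), a difference of 1.24. No background level was set for Ctla4, and whether tumour cells express it was not tested. Of 13 other checkpoint genes 6 were tested, with Tnfrsf14, which encodes the BTLA ligand HVEM, higher (1.00) and Cd200, a ligand that restrains myeloid cells, lower (-2.61, with 39 UMIs in WT and 18 in Kmt2c KO). Of 10 genes of the interferon gamma route and PD-L1 handling all 10 were tested. Irf1, at 43.1 to 44.7 CPM in WT and 126 to 168 CPM in Kmt2c KO (1.78), Socs1 (1.18), a feedback inhibitor of JAK signalling, and Irf2 (0.51) were higher, and Qpctl (-0.39), the enzyme that modifies Cd47 for SIRP alpha binding, was lower. In Kmt2d KO tumour cells 0 of these 20 tested genes were called by edgeR, with 7 at an unadjusted p under 0.05 and 2 called by DESeq2. Without Kmt2d KO library 2, 1 of 20 was called, Cmtm4 (0.34, edgeR adjusted p = 0.033), a regulator of PD-L1 at the cell surface. Between the knockouts edgeR called 0 of 20 (6 at an unadjusted p under 0.05, 2 by DESeq2), and 9 without library 2. Over all genes that count ran from 0 to 2776 with 1 library left out.

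Irf1 and Socs1 were called in macrophages and in endothelial cells. In macrophages Irf1 (1.54) and Socs1 (2.40) were higher in Kmt2c KO, 2 of 8 tested on the interferon route, with Cd40 (1.44), a costimulatory receptor, higher and Cd200r1 (-1.44), the receptor of Cd200, lower, each 1 of 3 tested on its list. In endothelial cells Irf1 (1.77) and Socs1 (3.90) were higher. Ido1, a tryptophan-degrading enzyme, was also called higher, with 2 UMIs in WT, 128 in Kmt2c KO, and 53 in library 2 of Kmt2d KO against 0 in its other libraries. Btnl9 (-1.53), a butyrophilin-like gene, was lower. No receptor had enough counts there. In dendritic cells Socs1 (3.6) was higher and Sirpa (-1.75) lower. All these are calls of the edgeR fit over all genes of the gate. In dendritic-gated cells of all libraries Socs1 had 6 UMIs in WT and 47 in Kmt2c KO. The sum over 10 macrophage markers in that gate was 720 to 940 CPM in WT and 265 to 411 CPM in Kmt2c KO. It was 454 to 732 CPM in Kmt2d KO, and its part in the Sirpa and Socs1 levels was not tested. In Kmt2c KO edgeR called 8 of 20 tested partner genes in tumour cells, 4 of 14 in macrophages, 4 of 12 in endothelial cells and 2 of 16 in dendritic cells. DESeq2 called 7, 2, 3 and 0. Of all genes tested, edgeR called 10.2% higher and 8.54% lower in tumour cells, 5.95% and 2.47% in macrophages, and 3.97% and 2.07% in endothelial cells. In dendritic cells it called 1.94% in either direction. Without Kmt2d KO library 2, which enters the same fits, edgeR called 12 in tumour cells, with Ifngr1, Ifngr2, Tnfsf14 and Vsir added, 5 in macrophages, with Ifngr1 added, and 7 in endothelial cells, with Cd40, Ifngr1 and Irf2 added. The 2 in macrophages by DESeq2 were Irf1 and Socs1, and in dendritic cells its adjusted p was 0.23 for Socs1 and 0.14 for Sirpa.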

How the data were processed

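Whole tumours were digested, dead cells and debris were removed by Percoll gradient, and 5′ single-cell libraries were made from 9 suspensions. The authors ran Cell Ranger 7.0.1 against mm10, per the labels, and deposited 1 aggregated matrix of whole-number UMI counts per gene and barcode with Cell Ranger Aggr. Its depth setting is not stated in those sources. Barcode suffixes gave the library, and the letters C, D and X of the aggregation table were read as Kmt2c KO, Kmt2d KO and, by elimination, WT. Library numbers 1 to 3 are names only.

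Cells with over 500 and under 7500 genes and under 15% mitochondrial counts were kept. The tumour gate needed at least 1 H2BMc UMI and no other gate. The macrophage and endothelial gates needed 3 markers and the dendritic gate 2, with no H2BMc or Krt8 UMI. The dendritic gate also needed an H2-Ab1 UMI and at most 1 of the C1q genes. Cells meeting 2 host gates were in none. No doublet caller was run. Of the barcodes, 13.0 to 68.5% a library exceeded the mitochondrial limit, the highest shares being 68.5% in WT library 3 and 50.7% in WT library 1. Replicate libraries differed beyond counting noise (chi-square per degree of freedom of 3.53 to 68.1).

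Counts summed per library and gate were tested with edgeR 4.0.16 (R 4.3.3; filterByExpr, TMM, glmQLFTest), in place of the study's Wilcoxon test over cells, which are not replicates. DESeq2 1.42.0 was an alternative. Paired and Kruskal-Wallis permutation tests were exact and ran over every gene (numpy 2.4.6). Adjustment was over all genes, in place of the adjustment over the ligands that had been planned. The scripts were tested on simulated data. Other alternatives changed the gates, filter, scaling, depth, libraries, thinning (1000 UMIs) and the cut of the scores (quartiles). The members, lists and tests were chosen with earlier results of these data known. The genes named are the 9 ligands, partners that were called, neighbours of Cd274, and the 10 genes (3 for Lgals9 and Cd47) with the highest r.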

Additional observations from a re-analysis of the deposited data

Results flagged for a closer look

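The cells of no gate lay outside the gates compared by genotype, and Cd274, Lgals9 and Cd47 stood higher there in each Kmt2c KO library than in any WT library. An alternative tumour gate set by Krt8 in place of H2BMc took in cells with Krt8 from among them, and edgeR called the same 3 ligands higher in Kmt2c KO with it (adjusted p of 0.018 for Cd274, 0.00087 for Lgals9 and 0.019 for Cd47). In those with at least 1 Krt8 UMI, the mean of Cd274 was 35.4 CPM in Kmt2c KO, against 3.95 to 6.39 CPM in the WT libraries. Lgals9 was 98.4 CPM in Kmt2c KO and 65.7 CPM in Kmt2d KO, against 55.5 to 61.4 CPM in WT. Cd47 was 358 CPM in Kmt2c KO and 321 CPM in Kmt2d KO, against 261 to 283 CPM. In cells of no gate without Krt8, Kmt2c KO means were 81.1 CPM for Cd274, 101.3 CPM for Lgals9 and 393 CPM for Cd47, against 7.79 to 35.6, 49.2 to 66.2 and 263 to 290 CPM in the WT libraries. In Kmt2d KO, Cd274 overlapped WT, at 4.65, 29.5 and 5.44 CPM in cells with Krt8 and 10.5 to 69.9 CPM in those without. Without Krt8 so did Lgals9 (59.1 to 80.7 CPM) and Cd47 (272 to 366 CPM). Other ligands were lower in cells of no gate. Without Krt8, Pvr was at 60.1 to 63.7 CPM in WT, 34.6 to 44.9 in Kmt2c KO and 27.5 to 34.1 in Kmt2d KO. Cd80 was at 11.7 to 16.2, 4.64 to 6.89 and 5.46 to 10.2 CPM in the same order. With Krt8, Cd276 was at 2.29 to 3.40 CPM in WT and 1.07 to 2.01 CPM in Kmt2c KO, while Pvr and Cd80 overlapped. Nectin2 with Krt8 and Cd276 without it also lay below WT in each Kmt2c KO library. The differences in cells of no gate were not tested, and the kinds of cell without Krt8 were not resolved.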

How the results depend on the processing

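No paired analysis was possible because the matrix columns carry none of the replicate numbers in the labels, which left no pairing across genotypes. With 1 library left out at a time, the number of ligands called kept within 1.5 times its value in 148 cases and moved in 22: tumour Kmt2d KO minus Kmt2c KO 0 to 4, macrophage Kmt2c KO minus WT 1 to 3 and Kmt2d KO minus Kmt2c KO 0 to 1, endothelial Kmt2c KO minus WT 0 to 1 and Kmt2d KO minus Kmt2c KO 0 to 1, the Kmt2c KO interaction 0 to 2 for macrophages and 0 to 1 for endothelial cells, and dendritic minus macrophage 3 to 4 of 5. Of the other alternatives 71 kept it and 14 moved it. Tumour Kmt2d KO minus Kmt2c KO went from 0 to 1 with DESeq2, H2BMc and Krt8, 2 H2BMc UMIs, other markers allowed or thinned cells, and to 2 with no low-count filter, Lgals9 being the ligand called in each. Macrophage Kmt2c KO minus WT went from 2 to 1 with DESeq2 and with 4 markers. With no filter, Kmt2d KO minus WT had 1 (Cd274) in macrophages and in endothelial cells. Unthinned shares gave 2 ligands in place of 5, dendritic cells with 1 marker more gave 0 in place of 5 against both gates (5 and 3 libraries are left, where p cannot reach 0.05), and hypoxia on log2(CPM + 1) gave 0. Reversed values were Cd276 (-0.22) and Lgals9 (-0.39) in endothelial cells with 2 markers, Cd274 in endothelial Kmt2d KO minus WT (-0.040 to 2.45 with 1 library left out), unthinned shares of Lgals9, Pvr and Cd47 (-4.51, -11.1 and -7.08 percentage points), and Cd274 in dendritic minus macrophage cells (-0.19 with 1 marker more, -0.31 to 0.30 with 1 library left out). The causes were not tested.

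Counts over all genes were as follows. In tumour cells, Kmt2c KO minus WT had 2614 genes (887 thinned, 1202 to 4062 with 1 library left out), Kmt2d KO minus WT 286 (657 with DESeq2, 540 unfiltered, 184 with only the 2 groups, 44 thinned, 95 to 773 with 1 library left out) and the knockouts between them 0 (580 with DESeq2, 629 unfiltered, 10 with H2BMc and Krt8, 11 with other markers allowed, 201 with 2 H2BMc UMIs, 66 thinned, 0 to 2776 with 1 library left out). In macrophages Kmt2c KO minus WT had 358 (649 unfiltered, 153 with 4 markers, 183 to 433 with 1 library left out), Kmt2d KO minus WT 48 (194 unfiltered, 151 with 2 markers, 6 with 4, 13 to 95) and the knockouts between them 10 (20 with DESeq2, 97 unfiltered, 2 with 2 markers, 5 with 4, 3 to 123). In endothelial cells they were 330 (669 unfiltered, 1461 with 2 markers, 105 to 631), 0 (16 with DESeq2, 191 unfiltered, 551 with 2 markers, 2 with 4, 0 to 30, 543 at an unadjusted p under 0.05) and 0 (14 with DESeq2, 181 unfiltered, 2 with 4 markers, 0 to 268, 530 unadjusted), and in dendritic cells 53 (20 with DESeq2, 82 unfiltered, 9 with 3 markers, 5 to 70), 0 (7 unfiltered, 1 with 3 markers, 0 with DESeq2, 0 to 10, 121 unadjusted) and 28 (18 with DESeq2, 52 unfiltered, 7 to 57). The median depth was 11579 UMIs in tumour-gated cells and 2240 in macrophages.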

Other observations

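Dendritic-gated cells of different kinds differed in ligand level. This split was made after the values were seen, pools cells of all libraries and carries no test. In 51 cells with at least 2 of Ccr7, Ccl22, Il4i1 and Cacnb3, genes of mature migratory dendritic cells, Cd274 stood at 566 CPM (exact Poisson interval 454 to 698), Pdcd1lg2 at 380 (289 to 490), Cd80 at 257 (184 to 350) and Cd86 at 302 CPM (222 to 402). In 158 cells with Xcr1, Clec9a or Cd209a, genes of conventional dendritic cells, they stood at 56.2 (38.5 to 79.4), 31.6 (18.7 to 50.0), 33.4 (20.1 to 52.1) and 192 CPM (157 to 231). Nectin2 stood at 77.2 (39.9 to 135) and 1.76 CPM (0.0445 to 9.79) in the same order of cells, on 12 UMIs and 1 UMI. Pvr stood at 51.5 (22.2 to 101) and 12.3 CPM (4.95 to 25.3), and Cd47 at 605 (489 to 740) and 397 CPM (347 to 452). Lgals9 had the other order, with 19.3 (3.98 to 56.4) and 82.6 CPM (60.7 to 110). The intervals cover counting error only.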
